A study of Arabidopsis thaliana with 30 samples.

Results

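The genes described here are 80 protein-coding genes of Arabidopsis thaliana. Their mean transcript levels were higher in seedlings of the *bdr1,2,3* triple mutant than in wild type in each of 5 growth conditions. They were chosen from the measured values, by ratios of group means and without regard to the spread between libraries. For each gene present in both deposited tables of normalized counts (22530 genes), the log2 ratio of the mutant mean to the wild-type mean was taken in each condition after adding 10 to both means. Genes with a mutant mean of at least 50 in all 5 conditions (12889 genes) were ranked by the smallest of their 5 ratios, called the score, and the 80 highest scores were kept. A smallest ratio above 0 was found for 1730 of the 12889 genes, and one above 1 for 9 of them. The height of these genes over wild type is therefore the rule of choice and is given as a description with no test.

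All libraries came from whole seedlings of the Col-0 ecotype, and each of the 10 groups held 3 libraries. In the photomorphogenesis experiment (18 libraries), wild-type and *bdr1,2,3* seedlings grown for 5 days in the dark at 21 °C were left in darkness or given 2 or 4 h of white light. The second experiment, called heat shock (12 libraries), used seedlings of both genotypes kept for 12 days at 12 °C in long days, which then stayed there (cold) or went to 27 °C for 4 h (heat). The mutant combines the T-DNA insertions *bdr1-1*, *bdr2-1* and *bdr3-1*, 1 line per gene. The labels speak of 3 plates per group and do not say whether these came from separate seed batches, so p-values measure the spread between these samples, which may be technical.

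BORDER (BDR) proteins carry a SPOC domain and the central domain of the elongation factor TFIIS, and they are found mainly between genes, where RNA polymerase II slows at the end of a transcribed gene. In a compact genome such as that of Arabidopsis the end of a gene often lies close to the start of the next gene on the same strand. Transcripts that gain in abundance without BDR proteins can thus be looked at by what they encode and by which gene lies upstream of them.

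Total counts ranged from 6823975 to 22888978 per library. The targeted gene *BDR1* fell from 1257 ± 131 (SD, n = 3) normalized counts in wild type to 32.4 ± 7.89 in the mutant in the dark, and it was lower in all 5 conditions (edgeR log2 fold changes from -5.27 to -4.53). *BDR2* was lower in all 5 conditions by a smaller amount, from -1.14 to -0.53, and *BDR3* was lower in 4 of them, with -0.06 (adjusted p = 0.857) in the cold. Among treatment markers, *ELIP1* rose by 7.82 on the log2 scale at 2 h of light in wild type, and *HSP101*, a heat-induced chaperone, rose by 3.00 after heat. The 2 experiments were normalized separately, so levels are compared within an experiment only.

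Several of the highest scores belonged to genes that begin a short distance after the end of another gene on the same strand. The stretches between the annotated end of that upstream neighbour and the annotated start of the member are shown for the 5 such members among the 12 highest scores whose genes do not overlap the neighbour. Capitals mark the bases between both annotated genes, and the 20 lower-case bases on each side belong to the neighbour (left) and to the member (right). Sequences are from RefSeq, assembly TAIR10.1, read 5′ to 3′ on the plus strand, on which all 5 members lie. The study used TAIR10, whose gene borders may differ.
AT5G60610: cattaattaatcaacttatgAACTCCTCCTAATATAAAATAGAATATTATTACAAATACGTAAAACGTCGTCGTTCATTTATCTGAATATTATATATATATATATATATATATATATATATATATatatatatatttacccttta
AT1G29560: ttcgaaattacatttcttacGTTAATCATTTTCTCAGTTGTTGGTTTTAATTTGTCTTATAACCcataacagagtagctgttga
AT1G05894: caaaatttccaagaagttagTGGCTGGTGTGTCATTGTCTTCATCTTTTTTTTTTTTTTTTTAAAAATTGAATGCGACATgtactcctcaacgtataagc
AT5G07640: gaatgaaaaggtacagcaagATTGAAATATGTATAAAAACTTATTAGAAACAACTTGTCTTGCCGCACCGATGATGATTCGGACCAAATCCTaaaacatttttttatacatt
HSD3: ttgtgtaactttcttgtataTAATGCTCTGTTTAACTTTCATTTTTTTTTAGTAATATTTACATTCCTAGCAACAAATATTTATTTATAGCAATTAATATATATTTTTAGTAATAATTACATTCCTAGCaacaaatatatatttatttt

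The first stretch (chr5:24363466-24363610) lies between *HDS*, an enzyme of plastid isoprenoid synthesis, and AT5G60610, and its 105 bases are 82.9% A or T, with a long run of alternating T and A at the right end. The second (chr1:10332307-10332390) is the 44 bases between AT1G29550 and AT1G29560, which are both members. The third (chr1:1784656-1784755) is the 60 bases between *ARI5*, a RING-type ubiquitin ligase gene, and AT1G05894. The fourth (chr5:2414731-2414842) holds 72 bases between AT5G07630 and AT5G07640. The fifth (chr3:17450723-17450871) holds 109 bases between *HSD2* and *HSD3*, neighbouring genes for hydroxysteroid dehydrogenases.

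Scores of the 80 genes ran from 0.27 (a 1.21-fold difference) to 2.73 (a 6.62-fold difference), with a median of 0.42 (1.34-fold). The score was over 1 for 9 genes and over 0.5 for 32. The median ratio over the 80 genes was 0.68 (dark), 0.68 (2 h), 0.59 (4 h), 0.67 (cold) and 0.71 (heat), and over the 12889 genes that could be ranked it lay between -0.01 and 0.04. The 5 ratios of a gene spanned 0.48 on the log2 scale in the median and more than 1 in 12 of the 80 genes. The cold was the condition of the smallest ratio for 22 genes and of the largest for 21. The 3 genes just inside the threshold were *TUA6*, AT1G60060 and *MLP28*, with scores of 0.27, 0.27 and 0.27, and the 3 just outside were *ACT8* (0.27), AT5G26010 (0.26) and AT3G01490 (0.26).

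**Figure D1:**
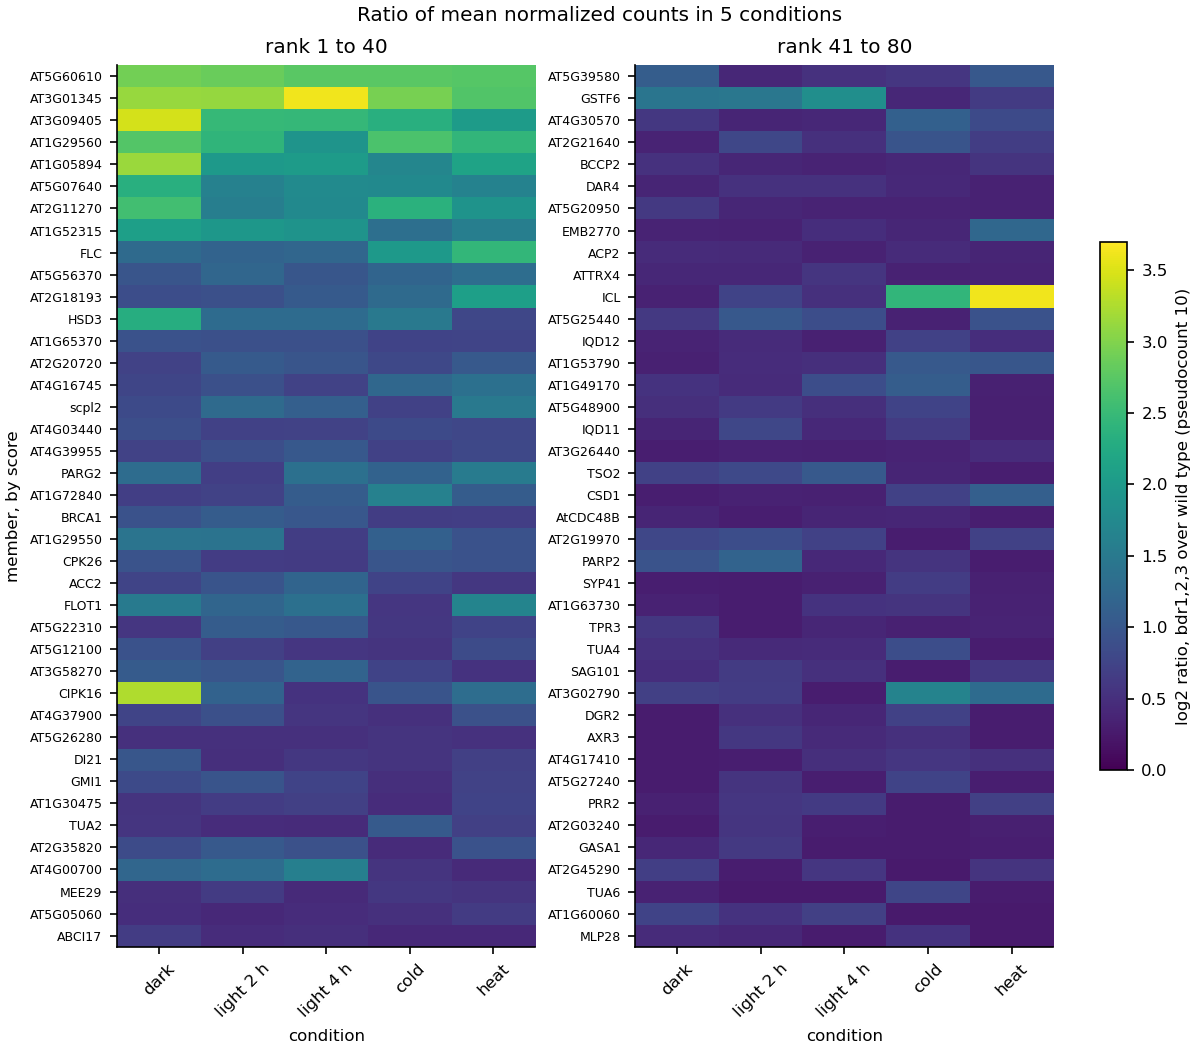
Colour gives the log2 ratio of the mean normalized count in bdr1,2,3 to that in wild type (10 added to both means) for the 80 genes (rows, by score) in 5 conditions (columns). The first 8 rows are high throughout, at 1.36 or more, while CIPK16 stands out in the dark (3.26) and ICL in the cold (2.44) and after heat (3.61).

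Replicates separated the genotypes for most of the 80 genes. All 3 mutant libraries lay above all 3 wild-type libraries for 76 genes in the dark, against 16.0% of the 12889 ranked genes, for 78 at 2 h of light (19.3%), for 77 after 4 h (14.6%), for 67 in the cold (16.7%) and for 70 after heat (22.3%). In 57 genes the groups were apart in all 5 conditions, a count that was not taken over the ranked genes. With edgeR's quasi-likelihood test over all genes, 76 were called higher in the mutant in the dark (8.04% of all tested genes were), 74 at 2 h of light (8.67%), 74 after 4 h (7.86%), 61 in the cold (4.57%) and 63 after heat (8.53%), and 0 were called lower. In all tested genes, 11.3%, 10.6%, 8.67%, 6.36% and 10.9% were called lower in the same order. Since the same contrast chose the genes, nothing is read from these counts.

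The highest score belonged to AT5G60610 (chr5:24363591-24365615), which encodes a protein with an F-box, a domain by which substrates are brought to ubiquitin ligases, and leucine-rich repeats. Wild-type libraries held 14.8, 24.5 and 26.9 in darkness, 29.6, 32.5 and 38.2 at 2 h of light, and 24.4, 27.2 and 31.9 at 4 h (normalized counts, as in all values per library that follow). Mutant libraries held 221, 232 and 238 in darkness, 289.8, 313 and 313 at 2 h of light, and 207, 251 and 274 at 4 h. At 12 and 27 °C, wild type held 13.5, 18.2 and 19.0 in cold, and 31.5, 34.3 and 37.7 in heat, and mutant libraries held 166, 167 and 182 in cold, and 246, 296 and 312 in heat. The lowest mutant library was thus several times above the highest wild-type library in each condition, and the 5 ratios were close to each other, from 2.73 to 2.91. It overlaps a defensin-like gene on the other strand by 50 bases. Another gene for an F-box protein, AT5G56370 (chr5:22835931-22837972, score 0.98), held 34.5, 54.6 and 54.9 in darkness, 43.6, 46.9 and 48.7 at 2 h of light, and 34.6, 52.5 and 65.7 at 4 h in wild type. The mutant libraries held 93.9, 106 and 113 in darkness, 109, 127 and 128 at 2 h of light, and 99.0, 112 and 121 at 4 h. They held 86.1, 97.6 and 106 in cold, and 129, 149 and 150.3 in heat, against 30.4, 35.3 and 43.8 in cold, and 40.5, 54.6 and 58.1 in heat in wild type. Here too the groups were apart in all 5 conditions, with ratios from 0.98 to 1.32.

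AT3G01345 (chr3:129138-130749, an uncharacterized protein, score 2.70) was at or near 0 in wild type. Its wild-type libraries held 1.11, 1.64 and 2.07 in darkness, 1.01, 4.08 and 5.31 at 2 h of light, and 0, 1.05 and 3.75 at 4 h, and 1.01, 2.39 and 3.80 in cold, and 0, 0 and 0.926 in heat. The mutant libraries held 75.1, 89.9 and 109 in darkness, 93.6, 113 and 114 at 2 h of light, and 122, 130.0 and 147 at 4 h. They held 67.8, 84.4 and 104 in cold, and 50.4, 58.0 and 62.5 in heat. The raw wild-type counts were between 0 and 5 per library, so the ratios of this gene, from 2.70 to 3.62, depend on the 10 added to each mean. Of the 12 highest scores it is the one whose upstream neighbour lies on the other strand. AT1G05894 (chr1:1784736-1786326), also uncharacterized, was low in wild type as well. It held 8.21, 13.5 and 16.7 in darkness, 11.2, 12.2 and 13.8 at 2 h of light, and 2.81, 6.35 and 10.5 at 4 h, and 10.4, 13.3 and 18.2 in cold, and 3.52, 3.704 and 5.66 in heat. Mutant libraries held 181, 193 and 201 in darkness, 67.5, 85.5 and 85.9 at 2 h of light, and 49.5, 53.9 and 69.5 at 4 h. They held 62.5, 62.7 and 78.7 in cold, and 46.8, 56.6 and 56.7 in heat in the other experiment. The dark stood out in the mutant for this gene, with a ratio of 3.14 against 2.00 at 2 h of light and 1.70 in the cold.

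AT3G09405 (chr3:2894798-2897674) encodes a pectin acetylesterase, of an enzyme family that removes acetyl groups from cell wall pectin, and overlaps the end of AT3G09410, a gene of the same family on the same strand, by 37 bases. Wild-type libraries held 8.21, 10.0 and 15.5 in darkness, 20.3, 20.4 and 23.4 at 2 h of light, and 19.1, 27.2 and 33.5 at 4 h. Mutant libraries held 195, 221 and 253 in darkness, 157, 163 and 177 at 2 h of light, and 174, 198 and 205 at 4 h. The other experiment gave 20.9, 25.5 and 27.3 in cold, and 33.5, 39.6 and 44.4 in heat in wild type, with 162, 165 and 168 in cold, and 162, 197 and 213 in heat for *bdr1,2,3*. The wild-type mean of the photomorphogenesis experiment was lowest in the dark and the mutant mean highest there, which gave the ratio of 3.46 in the dark against 2.03 after heat. Reads from the shared bases or from the similar gene may be lost or misassigned, so its level is uncertain. AT3G09410 itself was called lower at 2 h of light (-0.23) and in the cold (-0.31).

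AT1G29560 (chr1:10332371-10335714), for a CCCH zinc finger protein, and AT1G29550 (chr1:10330425-10332326), for a protein of the eIF4E family that binds the cap of mRNAs, stand in tandem and were both members. AT1G29560 held 50.9, 53.5 and 63.1 in darkness, 63.3, 66.0 and 66.9 at 2 h of light, and 74.1, 85.3 and 91.1 at 4 h in wild type. It held 409, 419.8 and 428 in darkness, 381, 391 and 409 at 2 h of light, and 332, 335 and 359.9 at 4 h in the mutant. The heat shock libraries held 104, 131 and 145 in cold, and 114, 115 and 130.3 in heat, against 793, 885 and 885 in cold, and 665, 667 and 738 in heat in the mutant. No mutant library of this gene overlapped the wild-type range in any of the 5 conditions. The upstream gene AT1G29550 held 54.2, 55.7 and 60.0 in darkness, 44.9, 48.9 and 58.9 at 2 h of light, and 86.3, 88.9 and 91.1 at 4 h in wild type. It held 159, 167 and 181 in darkness, 137, 152 and 165 at 2 h of light, and 146, 149 and 149 at 4 h in the mutant. At 12 and 27 °C, wild type held 131, 131 and 144 in cold, and 145, 155 and 156 in heat, and mutant libraries held 270.5, 326 and 336 in cold, and 288, 305 and 305 in heat. AT1G29550 was likewise apart in all 5 conditions, and the ratio of the downstream gene was the larger in each condition (2.70 against 1.43 in the dark, 2.43 against 0.93 after heat).

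AT5G07640 (chr5:2414823-2416299) encodes a RING/U-box protein, a type found in ubiquitin ligases. It held 9.85, 11.1 and 12.4 in darkness, 25.4, 28.7 and 37.8 at 2 h of light, and 19.1, 26.3 and 33.5 at 4 h in wild type. It held 85.1, 98.8 and 107 in darkness, 101, 109.7 and 136 at 2 h of light, and 108, 111 and 121 at 4 h in the mutant. The other experiment gave 30.3, 30.4 and 39.4 in cold, and 23.2, 25.5 and 30.2 in heat in wild type, with 113, 137 and 160.2 in cold, and 91.7, 97.9 and 119 in heat for *bdr1,2,3*. The groups were apart in all 5 conditions. AT2G11270 (chr2:4484720-4485568), annotated as a citrate synthase-like protein, held 9.85, 10.0 and 14.5 in darkness, 25.5, 27.4 and 31.9 at 2 h of light, and 24.4, 25.1 and 30.0 at 4 h in wild type. Its mutant libraries held 109, 112 and 134 in darkness, 93.8, 102 and 118 at 2 h of light, and 108, 112 and 121 at 4 h. The heat shock libraries held 2.02, 3.98 and 5.69 in cold, and 5.28, 10.2 and 14.1 in heat, against 53.0, 65.2 and 65.7 in cold, and 47.8, 64.4 and 81.3 in heat in the mutant. Both genes overlap a gene on the other strand, and the groups of AT2G11270 were apart in all 5 conditions.

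AT1G52315 (chr1:19481046-19482863), annotated as a regulator of Vps4 activity in the multivesicular body pathway, overlaps the end of AT1G52310 on the same strand by 109 bases. Wild-type libraries held 29.0, 31.1 and 31.2 in darkness, 40.8, 41.4 and 45.7 at 2 h of light, and 27.2, 27.5 and 34.6 at 4 h. Mutant libraries held 146, 161 and 177 in darkness, 175, 192 and 217 at 2 h of light, and 131, 138 and 146 at 4 h. At 12 and 27 °C, wild type held 28.5, 40.4 and 47.8 in cold, and 9.43, 16.7 and 24.7 in heat, and mutant libraries held 103, 113 and 130.2 in cold, and 61.5, 70.9 and 80.3 in heat. The groups were apart in all 5 conditions, and AT1G52310 upstream of it was called higher in the dark only, by 0.32 (adjusted p = 0.0287). AT2G18193 (chr2:7917413-7919345), for a P-loop ATPase, held 96.3, 108 and 119.9 in darkness, 177, 198 and 203 at 2 h of light, and 117, 118 and 127 at 4 h in wild type. The mutant held 151, 169 and 301 in darkness, 315, 388 and 402 at 2 h of light, and 248, 255 and 282 at 4 h. The other experiment gave 52.6, 65.6 and 75.9 in cold, and 6.48, 13.2 and 16.0 in heat in wild type, with 104, 183 and 229 in cold, and 66.4, 90.2 and 91.6 in heat for *bdr1,2,3*. It fell after heat in both genotypes, and the ratio was largest there (2.08). *HSD3* (chr3:17450852-17452949), annotated as hydroxysteroid dehydrogenase 3, held 138, 139 and 192 in darkness, 67.99, 81.2 and 99.0 at 2 h of light, and 82.7, 96.6 and 98.5 at 4 h in wild type. It held 782, 803 and 843 in darkness, 203, 213 and 236 at 2 h of light, and 232, 243 and 250.4 at 4 h in the mutant. The heat shock libraries held 84.8, 105 and 118 in cold, and 123, 160.2 and 169 in heat, against 280.0, 313 and 326 in cold, and 172, 282 and 344 in heat in the mutant. Its ratio was 2.30 in the dark and 0.78 after heat, where it set the score. Its upstream neighbour *HSD2* was called higher after heat only (0.44).

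*FLC* (chr5:3173382-3179448), the MADS-box repressor of flowering that is silenced by long cold, had the ninth score. Wild-type libraries held 809, 869 and 914 in darkness, 658, 710.4 and 742 at 2 h of light, and 553, 556 and 577 at 4 h. Mutant libraries held 2074, 2088 and 2162 in darkness, 1546, 1609.6 and 1652 at 2 h of light, and 1314, 1321 and 1338 at 4 h. At 12 and 27 °C, wild type held 330.2, 345 and 371 in cold, and 273, 297 and 337 in heat, and mutant libraries held 1392, 1393 and 1449.7 in cold, and 1601, 1658 and 1849.6 in heat. The groups were apart in all 5 conditions, with ratios from 1.18 at 2 h of light to 2.46 after heat. An annotated non-coding gene on the other strand overlaps *FLC*, and the use of strand in counting is not stated in the sources used here, so reads of both strands may be mixed. *SOC1*, a floral activator that FLC represses, was lower in the mutant in all 5 conditions. It held 993 ± 39.7 normalized counts (SD, n = 3) in wild type against 350.0 ± 14.0 in the mutant in the cold, and 356 ± 43.6 and 42.5 ± 7.16 after heat, with log2 fold changes of -1.51 and -3.11 (edgeR adjusted p = 9.46e-10 and 7.88e-12). Among the 5 relatives *MAF1* to *MAF5*, *MAF2* was called higher by 0.27 in the cold and 0.36 after heat, and the other 4 were called in no condition. Of the genes of the *FLC* list that were not members, 15 were tested in the dark and light conditions and 16 in cold and heat. Of these, 0, 0, 1, 2 and 3 were called higher and 3, 1, 2, 1 and 1 lower in dark, 2 h and 4 h of light, cold and heat, with medians between -0.11 and 0.10. This list and those for DNA damage, fatty acid synthesis and tubulins below were written after the members were known.

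**Figure D2:**
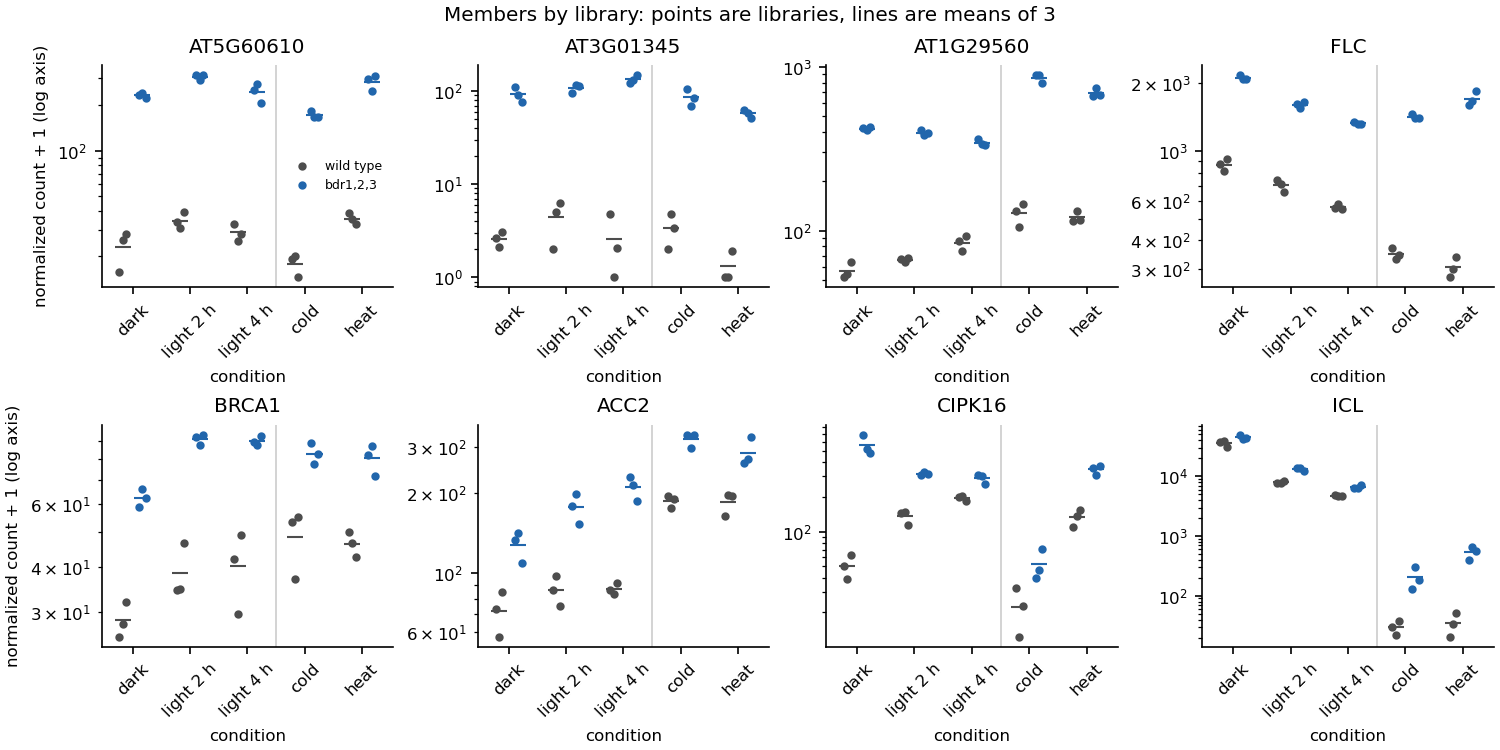
Points give the normalized count + 1 of each library (log axis, its own range in each panel) for 8 members in 5 conditions, in wild type (grey) and bdr1,2,3 (blue), with a line at the mean of 3. The grey vertical line separates the 2 experiments, which were normalized separately. The 3 blue points lie above the 3 grey points in every condition of all 8 genes.

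Upstream neighbours of these genes were most often on the same strand. The nearest protein-coding gene on the 5′ side lay on the same strand for 50 of the 80 genes (62.5%), against 49.0% of all ranked genes, and in 11 of the 12 highest scores. It lay on the same strand within 150 bp, overlaps included, for 17 of the 80 (21.3%, against 11.0% of ranked genes) and for 7 of the 12 highest scores (AT5G60610, AT3G09405, AT1G29560, AT1G05894, AT5G07640, AT1G52315 and *HSD3*). Among the other 68 genes the same-strand share was 57.4% and the share within 150 bp was 14.7%. On the 3′ side the neighbour was on the same strand for 39 of the 80 (48.8%), against 50.1% of ranked genes. These shares were computed with the scores known and are a description. Annotated genes overlapped 25 of the 80 genes, 6 of them on the same strand, and the values of these 25 are uncertain.

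**Figure D3:**
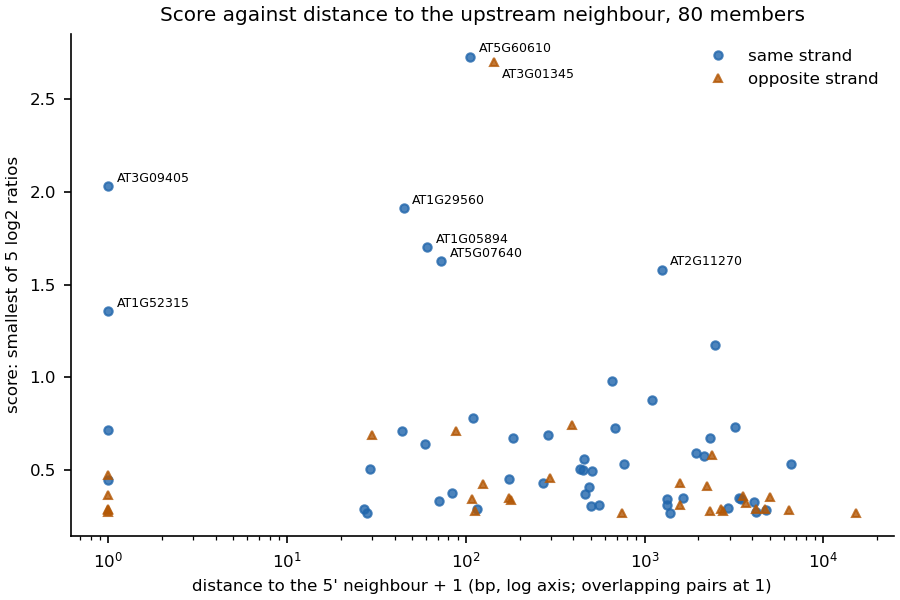
Score (smallest of 5 log2 ratios) against the distance in bp to the nearest protein-coding gene on the 5′ side + 1 (log axis) for the 80 members, with the neighbour on the same strand (circles) or the opposite strand (triangles), and overlapping pairs at 1. Of the 8 named points, 6 have a same-strand neighbour within 105 bp or overlapping it.

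The neighbours' own transcripts were not used by the rule, so their difference between genotypes was tested. Of 155 neighbouring protein-coding genes that were not members, 110 were tested in each experiment. In the dark 15 were called higher and 13 lower (13.6% and 11.8%, against 8.04% and 11.3% of all genes). Higher and lower calls numbered 11 and 19 at 2 h of light, 14 and 18 at 4 h, 6 and 13 for cold and 9 and 14 for heat. These were 10% and 17.3%, 12.7% and 16.4%, 5.45% and 11.8%, and 8.18% and 12.7% of the neighbours tested. Of all genes, 8.67% and 10.6%, 7.86% and 8.67%, 4.57% and 6.36%, and 8.53% and 10.9% were called in the same order. The median log2 fold change of the neighbours lay between -0.05 and 0.04 (all genes, -0.02 to 0.01). Among same-strand neighbours on the 5′ side (37 or 38 tested), 5, 8, 10, 6 and 4 were called lower in the 5 conditions. These were 13.5%, 21.6%, 27.0%, 15.8% and 10.5% of those tested. Higher calls numbered 6, 6, 6, 2 and 3 (16.2%, 16.2%, 16.2%, 5.26% and 7.89%). Among same-strand neighbours on the 3′ side (25 or 27 tested), 4, 9, 4, 3 and 5 were lower (16%, 36%, 16%, 11.1% and 18.5%). On that side 6, 2, 4, 2 and 5 were higher (24%, 8%, 16%, 7.41% and 18.5%).

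*HDS*, which ends 105 bases before AT5G60610, was called lower in the mutant in all 5 conditions. It held 1371 normalized counts in wild type against 979.7 in the mutant in the dark (means, n = 3), with log2 fold changes from -0.33 in the cold to -0.58 at 4 h of light (edgeR adjusted p = 0.0282 and 2.9e-06). *ARI5*, 60 bases upstream of AT1G05894, was lower in the 3 conditions of the photomorphogenesis experiment (-0.41, -0.35 and -0.44) and not called in cold or heat. *CGL1*, a gene for an enzyme of N-glycan maturation 58 bases upstream of *CPK26*, was lower in 4 conditions, with -0.46 the lowest value. AT2G21630, for a protein of the Sec23/Sec24 family 462 bases upstream of AT2G21640, was lower in all 5, from 121 to 17.2 in the dark, a log2 fold change of -2.82. The members were higher by the rule and these 4 pairs were picked for a lower upstream gene, so the opposite directions are a description only.

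Genes that lie downstream of a member on the same strand were also called lower in several cases. AT5G13470, of unknown function and 45 bases after *IQD11*, was lower in all 5 conditions, from -0.59 after heat to -1.05 in the cold. AT1G19720, a pentatricopeptide repeat gene 135 bases after *ATTRX4*, was lower in 4 conditions, AT1G53780, for a proteasome ATPase 58 bases after AT1G53790, was lower in 3, and *CNGC9*, for a cyclic nucleotide-gated channel 243 bases after AT4G30570, was lower in 4, with a log2 fold change of -2.23 in the cold. AT1G67950, which overlaps the end of *ABCI17* on the other strand by 91 bases, was lower in all 5, from -1.01 in the dark to -2.10 after heat, and its counts may include reads of *ABCI17*. AT5G22320, upstream of AT5G22310, was lower in 4 conditions and AT2G20725, upstream of AT2G20720, in 3.

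Higher calls in 3 or more conditions were found for *scpl4* and *scpl5* on both sides of *scpl2*, which encode similar serine carboxypeptidases, for AT2G35830 beside AT2G35820, both annotated as ureidoglycolate hydrolases, for AT4G00695 beside AT4G00700, for *WNK7* beside AT1G49170 and for *SWEET17* beside *DI21*. *scpl4*, AT2G35830 and AT4G00695 overlap the member on the same strand, so reads may be misassigned. AT5G12110, an elongation factor 1-beta gene next to AT5G12100, changed direction, with 0.84 in the dark and -1.10 at 2 h of light, as did AT5G26290 next to AT5G26280, with 1.31 in the dark and -1.26 after heat. Besides AT1G29550 and AT1G29560, AT4G03440 and *EMB2770* were neighbouring members, 3383 bases apart.

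Repair and signalling of DNA damage was represented by 5 members. *BRCA1* (0.68), for a ubiquitin ligase of recombination repair, held 24.6, 26.7 and 31.1 in darkness, 33.5, 33.7 and 45.7 at 2 h of light, and 28.6, 41.3 and 48.2 at 4 h in wild type. It held 57.7, 61.3 and 65.0 in darkness, 86.7, 91.5 and 92.7 at 2 h of light, and 86.6, 88.5 and 91.7 at 4 h in the mutant. The other experiment gave 36.1, 52.5 and 54.2 in cold, and 41.7, 45.8 and 49.0 in heat in wild type, with 76.5, 81.5 and 88.0 in cold, and 71.0, 81.0 and 86.3 in heat for *bdr1,2,3*. The *BRCA1* groups did not overlap in any condition. *PARP2* (0.29), whose product adds poly(ADP-ribose) chains to proteins at DNA breaks, held 34.5, 45.5 and 47.6 in darkness, 52.8, 71.2 and 75.5 at 2 h of light, and 214, 220.2 and 239 at 4 h in wild type. It held 86.0, 90.4 and 97.6 in darkness, 153, 164 and 172 at 2 h of light, and 274, 309 and 329 at 4 h in the mutant. The heat shock libraries held 101, 113 and 116 in cold, and 112, 114 and 159 in heat, against 145, 172 and 182 in cold, and 126, 174 and 179.6 in heat in the mutant. *PARP2* rose with light in both genotypes, and its ratio was 1.18 at 2 h against 0.42 at 4 h. The genotypes overlapped only after heat.

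*PARG2* (0.69), for a glycohydrolase that removes these chains, reached 48.2, 57.2 and 68.8 after heat in wild type against 172, 196 and 198 in the mutant, and its ratios ran up to 1.54. *GMI1* (0.50), named for its induction by gamma rays and mitomycin C, held 66.3, 67.3 and 76.9 in the dark in wild type against 117, 134 and 147 in the mutant. *TSO2* (0.31), for the small subunit of ribonucleotide reductase, which makes deoxyribonucleotides, held 297, 299.7 and 316 at 4 h of light in wild type against 611, 623 and 666 in the mutant. All 3 had mutant means over wild type in each condition, but *TSO2* groups overlapped in the cold.

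Other genes of this pathway were also tested, 18 in the photomorphogenesis and 17 in the heat shock experiment. In the mutant 5 were called higher in the dark, 7 at 2 h of light, 5 after 4 h, 5 in the cold and 1 after heat, and 1 (*KU70*, -0.32 at 2 h of light) was called lower. DESeq2 called 3, 6, 3, 3 and 1 of them higher in the same order. Their median log2 fold change was 0.26, 0.32, 0.27, 0.19 and 0.10 in that order, against medians of all genes between -0.02 and 0.01. *XRI1*, *SMR7*, for an inhibitor of cyclin-dependent kinases, and *NAC044*, a transcription factor gene, were each called higher in 4 of the 5 conditions. After heat *NAC044* was the gene called (1.38). The sensor kinase genes *ATM* and *ATR* and the gene of the master regulator *SOG1* were called in no condition.

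The consensus bound by SOG1, CTTNNNNNNNAAG, was searched in the 250 bases before to the 50 after each gene start, where it reads the same on both strands. It was found for 13 of the 80 members (16.3%), for 9.93% of ranked genes and for 11.8% of all 27444 protein-coding genes. Among the damage genes that were members, the 2 with a match, *PARG2* (minus strand) and *PARP2* (plus strand), are shown with the match in capitals. Matches of damage genes that were not members were not listed. The matches begin 24 and 96 bases before the gene start (chr2:13549572-13549625 and chr4:1049640-1049712, TAIR10.1).
PARG2: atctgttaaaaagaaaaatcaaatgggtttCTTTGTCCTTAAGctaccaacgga
PARP2: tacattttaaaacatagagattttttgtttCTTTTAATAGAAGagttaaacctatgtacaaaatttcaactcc

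A match is a description and not a binding site. Other short motifs were at shares of 13.8% for the G-box CACGTG (9.25% of ranked genes), 10.0% for TGGGCC, the TCP-like site (22.1%), 8.75% for GAANNTTC, a core of heat shock elements (11.1%), and 47.5% for TATAAA (50.9%), each on both strands in the same windows.

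Fatty acid synthesis in plastids starts from acetyl-CoA carboxylase, and 3 members belong to it. *ACC2* (0.59), the single-chain carboxylase of plastids, held 56.8, 72.3 and 83.9 in darkness, 74.4, 85.3 and 97.0 at 2 h of light, and 82.6, 85.3 and 91.1 at 4 h in wild type. It held 109, 132 and 141 in darkness, 153, 179 and 197 at 2 h of light, and 186, 214 and 229 at 4 h in the mutant. At 12 and 27 °C, wild type held 175, 189.7 and 194 in cold, and 163, 195 and 196 in heat, and mutant libraries held 296, 331 and 332 in cold, and 259.6, 268 and 324 in heat. *BCCP2*, the biotin carrier of the multi-subunit enzyme, and *ACP2*, the acyl carrier protein, had ratios between 0.37 and 0.56 and between 0.35 and 0.45. Of the 15 other tested genes of the list, 3, 4, 5, 2 and 3 were called higher and 0, 1, 0, 0 and 1 lower in the 5 conditions. *ACP3*, for a similar carrier protein, was higher in all 5, by 0.23 to 0.36, and reads of these similar genes may be lost or misassigned. *ACC1*, the cytosolic carboxylase close to *ACC2*, was called at 4 h of light only (0.26).

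Alpha-tubulins, subunits of microtubules, were represented by *TUA2*, *TUA4* and *TUA6*. *TUA2* held 2603, 3152 and 3579.5 in the cold in wild type against 5868, 6147 and 7312 in the mutant, *TUA4* held 1909.7, 2404 and 2638 against 3759, 4342 and 4712, and *TUA6* held 4947, 5530.0 and 5937 against 8444, 9361 and 10238. The ratio was largest in the cold for all 3 (1.05, 0.88 and 0.77), where the groups did not overlap. These genes have near-identical coding sequences and only uniquely aligned reads were kept, so their values are uncertain and their 3 entries are not independent. The 12 other tubulins included 6, 5, 2, 1 and 1 called higher and 0, 0, 0, 0 and 1 called lower in the 5 conditions. Most were beta-tubulins in the dark and at 2 h of light, led by *TUB1* with 0.88 and 1.05.

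Other members belong to protein turnover and immunity. Besides AT5G60610 and AT5G56370, the F-box gene AT1G53790 was a member (0.34), with larger ratios in cold (1.03) and heat (0.99) than in dark (0.34). The TRAF-like genes AT1G65370 (0.75), AT3G58270 (0.54) and AT5G26280 (0.51) made up 3 of the 19 ranked genes of that annotation, and F-box genes 3 of 101. The resistance genes AT1G72840 (0.69) and AT1G63730 (0.29) encode TIR-NBS-LRR receptors, which recognize pathogen effectors, and *DAR4* (0.36) encodes a receptor of the same kind fused to a LIM domain. *SAG101* (0.29) encodes a partner of EDS1 in signalling from such receptors. It held 105, 109 and 119.8 at 2 h of light in wild type against 173, 181 and 182 in the mutant. Of the other genes of salicylic acid defence, *WRKY70* was called higher at 2 h (0.74), at 4 h (0.66) and after heat (1.52), and *SARD1* and *CBP60G* after heat. *EDS1* and *PAD4*, the partners of *SAG101*, were called in no condition.

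Redox genes among the members were *CSD1* (0.31), for the cytosolic copper/zinc superoxide dismutase, *GSTF6* (0.41), for a glutathione transferase, *ATTRX4* (0.35), for a thioredoxin, AT5G39580 (0.41), for a peroxidase, and AT2G21640 (0.37), annotated as a marker of oxidative stress. The genotypes overlapped for AT5G39580 in dark, at both light times and in the cold, and it was called in 1 condition. At 4 h of light its libraries held 209, 274 and 1161 in wild type against 652, 659 and 1066 in the mutant. *CSD1* held 529, 631 and 657 in cold, and 405, 408 and 537 in heat in wild type. The mutant held 943, 965 and 1092 in cold, and 924, 1008 and 1026 in heat, and the gap widened from a ratio of 0.31 in the dark to 1.11 after heat. *CSD2*, for the plastid isoform, was not a member and was higher in the dark (0.24), cold (1.05) and heat (1.65). *GSTF6* held 10.4, 69.1 and 72.3 in the dark in wild type, where 1 library lay far below the others, and 134, 149 and 177 in the mutant, and its ratios ran from 0.41 in the cold to 1.83 at 4 h of light. Among the other antioxidant genes (12 tested in dark and light, 13 in cold and heat), 2, 2, 3, 2 and 2 were called higher and 3, 2, 2, 3 and 2 lower in the 5 conditions. *CAT1*, for a catalase, was lower in all 5 conditions.

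*ICL* (chr3:7652487-7656053), for isocitrate lyase of the glyoxylate cycle that turns seed oil into sugar, showed the widest span of ratios, from 0.35 in the dark to 3.61 after heat. In the cold wild-type libraries held 20.9, 29.3 and 37.5 and mutant libraries 128, 179 and 299, and after heat they held 19.8, 32.6 and 50.9 against 391, 566 and 645. In the dark it was abundant in both genotypes, at 30590.5, 37761 and 38557 in wild type against 42076, 44214 and 49803 in the mutant. *MLS*, for malate synthase of the same cycle, was called higher in 4 conditions, by 1.54 in the cold and 1.40 after heat. Of the 10 tested non-members of the oil breakdown list, 1, 1, 2, 2 and 7 were called higher and 2, 0, 0, 1 and 0 lower. Seed maturation transcripts moved with *ICL* in the heat shock experiment: 5 of 11 were called higher in the cold and 9 of 11 after heat, and their summed level was 41.5 to 118 normalized counts in wild type and 399 to 446 in the mutant after heat. In the photomorphogenesis experiment 4 were tested and edgeR called 0 in each condition, which was also 0 at an unadjusted p under 0.05. DESeq2 called 0 after adjustment, and 1, 0 and 1 were higher at an unadjusted p under 0.05. The edgeR median log2 fold changes were 1.82 (dark), 0.09 (2 h) and 0.61 (4 h). Summed over the list, levels overlapped between genotypes in each of these conditions, as with 14.5 to 178 in wild type and 70.2 to 564 in the mutant in the dark. The part of these transcripts in the *ICL* values was not tested.

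Kinase genes were *CIPK16* (0.54), for a kinase that acts with calcineurin B-like calcium sensors, *CPK26* (0.64), for a calcium-dependent kinase, AT5G25440 (0.35) and the WNK-like AT1G60060 (0.27). They were 4 of the 755 ranked protein kinase genes, 5% of the members against 5.86% of ranked genes. *CIPK16* held 37.9, 49.3 and 62.1 in darkness, 113, 144 and 148 at 2 h of light, and 181, 199.7 and 203 at 4 h in wild type. It held 481, 514 and 689 in darkness, 306, 317 and 324 at 2 h of light, and 256, 299 and 306 at 4 h in the mutant. The other experiment gave 11.4, 21.5 and 31.3 in cold, and 109, 135 and 152 in heat in wild type, with 38.6, 45.2 and 69.1 in cold, and 308, 354 and 369.5 in heat for *bdr1,2,3*. The dark difference was thus the largest, with a ratio of 3.26, and at 4 h of light it was 0.54. The calmodulin-binding scaffold genes *IQD11* (0.33) and *IQD12* (0.34) were 2 of 18 ranked IQ-domain genes.

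RNA-related members were the pentatricopeptide repeat genes AT2G20720 (0.73) and AT5G12100 (0.56), whose products act on organelle RNA, the splicing-related *EMB2770* (0.35) and the helicase-domain gene *MEE29* (0.43). Regulators were *AXR3* (0.29), an Aux/IAA repressor of auxin response, *TPR3* (0.29), a co-repressor of the TOPLESS family, and the zinc finger gene AT3G02790 (0.29), whose ratio reached 1.66 in the cold. Protein handling was represented by *AtCDC48B* (0.31), for an AAA-type ATPase, AT5G27240 (0.28), for a J-domain protein, AT4G17410 (0.28), for a DWNN-domain protein, and the cystatin-like AT5G05060 (0.43). Membrane genes were *FLOT1* (0.59), a flotillin, *SYP41* (0.29), a syntaxin of the trans-Golgi network, the ABC protein gene *ABCI17* (0.42) and AT2G03240 (0.28), of the EXS family.

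Cell wall and secreted protein genes were AT4G16745 (exostosin family, 0.73), AT5G48900 (pectin lyase-like, 0.33), AT5G20950 (glycosyl hydrolase, 0.36), *DGR2* (0.29), *GASA1* (0.28) and AT2G19970 (0.30), of the CAP family. Metabolic genes were *scpl2* (0.71), AT2G35820 (0.45), AT4G30570 (0.38), AT2G45290 (transketolase, 0.27) and *PRR2* (pinoresinol reductase, 0.28). The remaining 10 were AT4G03440 (ankyrin repeats, 0.71), AT4G39955 (alpha/beta hydrolase, 0.71), AT5G22310 (0.58), AT4G37900 (0.51), *DI21* (0.50), AT1G30475 (0.47), AT4G00700 (0.45), AT1G49170 (0.34), AT3G26440 (0.32) and *MLP28* (0.27), and most of these have no role that the annotation names.

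Responses to light and heat within a genotype were not ranked by the rule and were tested, in the same libraries that the rule used. A member needed a mutant mean of at least 50 in all 5 conditions, and the shares of all genes given here have no such limit. After 2 h of light 24 of the 80 genes rose and 29 fell in wild type (33.9% and 32.9% of all genes did), and 20 rose and 36 fell in the mutant (33.9% and 33.8%). After 4 h 17 rose and 41 fell in wild type (35.2% and 34.9%), and 18 rose and 42 fell in the mutant (35.9% and 34.1%). After heat 30 rose and 15 fell in wild type (29.3% and 28.5%), and 29 rose and 19 fell in the mutant (29.4% and 31.2%). The median log2 fold change at 4 h was -0.27 (wild type) and -0.37 (mutant), against 0.00 and 0.01 over all genes, and after heat it was 0.22 and 0.19. At 2 h the median was -0.07 in wild type, where the counts were near the shares of all genes, and -0.25 in the mutant. The genes thus fell more often than they rose at 4 h of light and rose more often in heat, in both genotypes.

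Light lowered AT5G22310, annotated as trichohyalin-like, most of all members at 4 h. It went from 239, 275 and 371 in the dark to 15.7, 21.2 and 22.5 after 4 h in wild type, and from 399, 432 and 506 to 40.0, 49.3 and 62.6 in the mutant. The log2 fold changes (± SE, n = 3 against 3) were -3.86 ± 0.19 and -3.14 ± 0.16 (edgeR adjusted p = 1.09e-14 and 1.33e-14). *ICL* changed by -2.93 ± 0.09 and -2.75 ± 0.09 at 4 h, AT1G60060 by -2.12 ± 0.12 and -2.30 ± 0.11 at 2 h, and *DGR2* by -2.15 ± 0.07 in wild type at 4 h. *HSD3* fell in the mutant at 2 h (-1.90 ± 0.10) and in wild type (-0.91 ± 0.14).

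Light raised AT2G21640 from 68.3, 73.5 and 85.4 in the dark to 379.8, 409.6 and 417 after 4 h in wild type, and from 75.6, 82.8 and 145 to 533, 596 and 606 in the mutant, log2 fold changes of 2.43 ± 0.17 and 2.57 ± 0.15. *AtCDC48B* rose at 2 h by 2.56 ± 0.11 in wild type against 2.49 ± 0.11 in the mutant, where the change at 4 h was 1.68 ± 0.11. *PARP2* rose at 4 h by 2.41 ± 0.14 and 1.76 ± 0.11. AT1G30475 was the third largest rise in the mutant at 2 h, at 1.07 ± 0.14.

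Heat raised *AtCDC48B* again, by 2.96 ± 0.24 in wild type against 2.89 ± 0.23 in the mutant, *CIPK16* by 2.52 ± 0.25 and 2.76 ± 0.19, and *GASA1*, a gene regulated by gibberellin, by 2.03 ± 0.19 and 2.05 ± 0.19. It lowered *GSTF6* from 249, 302 and 409 to 33.3, 34.9 and 44.0 in wild type and from 400.2, 429.7 and 457 to 51.5, 67.0 and 73.2 in the mutant, log2 fold changes of -3.12 ± 0.19 and -2.76 ± 0.17. In wild type AT2G18193 (-2.39 ± 0.40) and *FLOT1* (-1.93 ± 0.38) fell next most, and in the mutant *ABCI17* (-1.21 ± 0.19) and AT5G22310 (-1.18 ± 0.11). *FLOT1* in the mutant changed by -0.27 ± 0.27 (adjusted p = 0.409).

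Both genotypes were called in the same direction for 46 of the 80 genes at 2 h of light (18 higher and 28 lower), for 50 at 4 h (11 and 39) and for 33 after heat (21 and 12), and in opposite directions for 2, 2 and 1. Such joint counts were not taken over all genes, so nothing is read from them. *CIPK16* was the clearest of the opposite cases. Light raised it in wild type (1.45 ± 0.19 at 2 h, 1.96 ± 0.18 at 4 h) and lowered it in the mutant (-0.84 ± 0.12 and -0.94 ± 0.12), so that levels of both genotypes came closer together. Each such difference shares its libraries with the rule and was not tested.

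**Figure D4:**
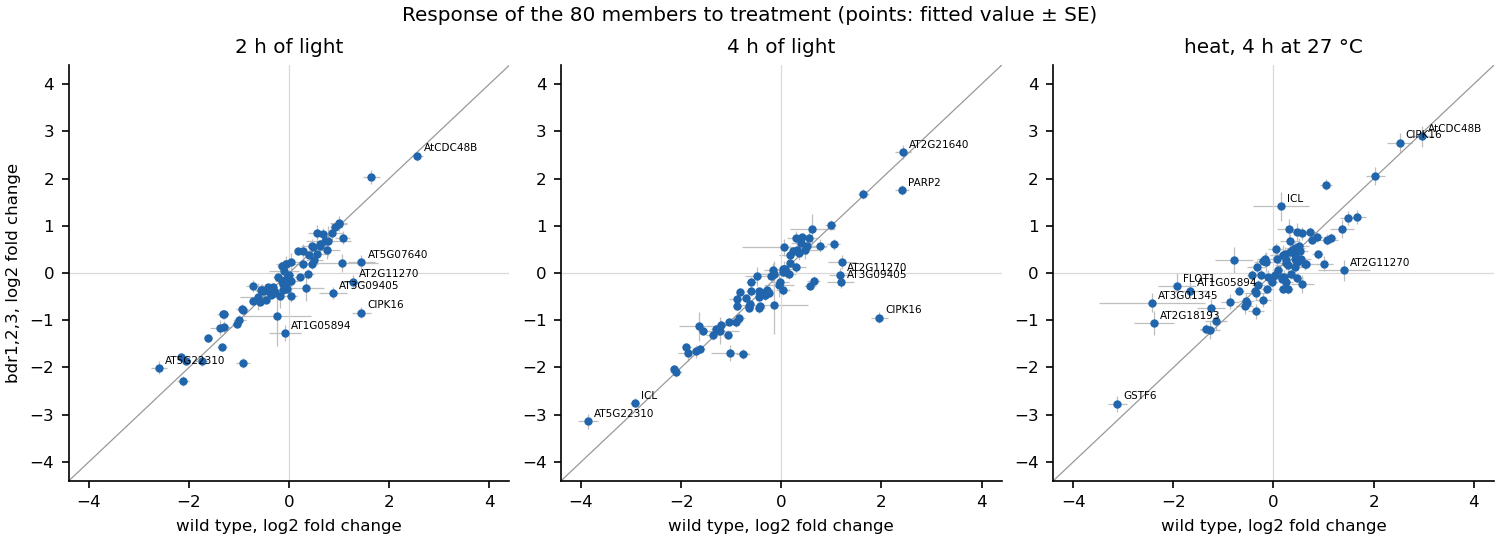
Each point is 1 of the 80 members, with its fitted log2 fold change ± SE in wild type (horizontal) and in bdr1,2,3 (vertical) at 2 h of light, 4 h of light or heat, and the diagonal marks equal responses. Of the 80 genes 46, 50 and 33 were called in the same direction in both genotypes, a count not taken over all genes. CIPK16 lies far below the diagonal in light, at 1.96 in wild type against -0.94 in the mutant at 4 h.

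To see whether genes chosen in 1 experiment were also higher in the other, the rule was applied to each experiment alone and the 80 genes so chosen were tested in the libraries that had no part in the choice. Of the 80 genes re-chosen from the dark and light conditions, 31 were among the members and 78 were tested in the heat shock experiment. In the cold 28 were called higher and 1 lower (35.9% higher, against 4.57% of all genes), with a median log2 fold change of 0.40. After heat 42 were higher and 1 lower (53.8%, against 8.53%), with a median of 0.77. Of the 80 genes re-chosen from cold and heat, 31 again were members and 78 were tested in the photomorphogenesis experiment. In the dark 38 were higher and 2 lower (48.7%, against 8.04%, median 0.34), at 2 h of light 42 and 2 (53.8%, against 8.67%, median 0.41), and after 4 h 39 and 10 (50%, against 7.86%, median 0.41). All-gene medians in these comparisons lay between -0.02 and 0.01. Most calls were thus in the direction of the choice. The same pair of genotypes was used in both experiments, so any other difference between the mutant line and wild type cannot be told apart from loss of BDR proteins.

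**Figure D5:**
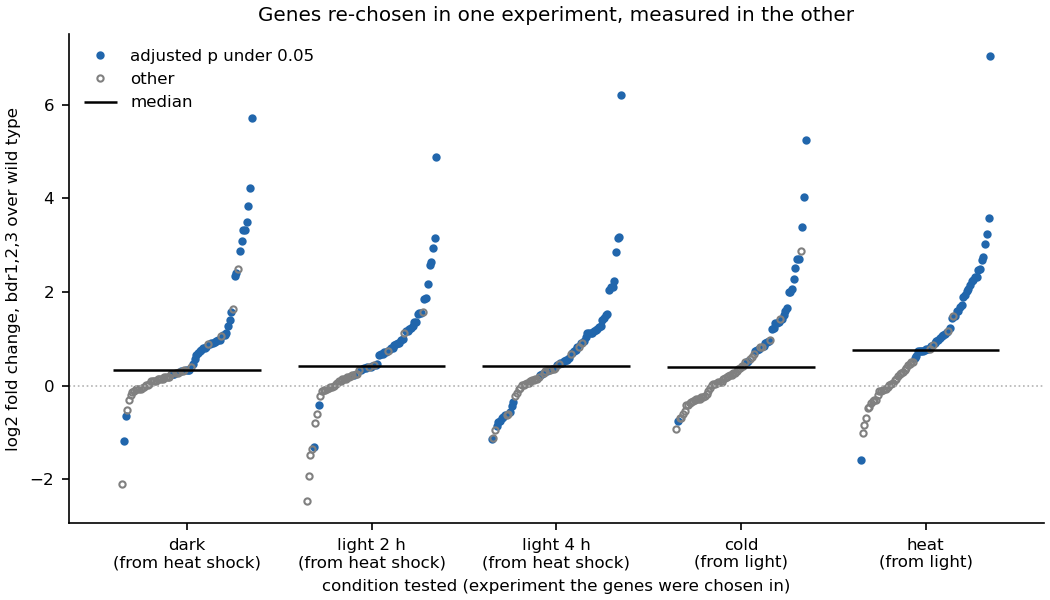
Sorted edgeR log2 fold changes (bdr1,2,3 over wild type) of the genes re-chosen in one experiment, tested in each condition of the other, with filled points at an adjusted p under 0.05, open points otherwise and a line at the median. Medians are 0.34, 0.41, 0.41, 0.40 and 0.77 from left to right, and each column also holds genes below 0.

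The position of the members relative to the 3 *BDR* genes, where the insertions lie, was also examined. Within 0.5 Mb of *BDR1* lay 80 ranked genes, of which 4 (5%) were members (*FLOT1*, AT5G25440, *DGR2* and AT5G26280), while 0.582% of the ranked genes farther than this from all *BDR* genes were members (73 of 12536). Within 1 Mb of *BDR1* there were 8 of 201. For *BDR2* the numbers were 2 of 152 within 0.5 Mb (*FLC* and AT5G12100), and for *BDR3* 1 of 114 (*CIPK16*). Of all ranked genes within 0.5 Mb of *BDR1*, 16.3% had all 5 ratios above 0, against 13.4% of the genes farther away. The windows were set with the members known, and the part of linked sequence in the values of these genes was not tested. Within 2 Mb of any *BDR* gene, 19 of 1438 ranked genes (1.32%) were members, against 61 of 11444 (0.533%) farther from every *BDR* gene.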

How the data were processed

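The authors aligned stranded mRNA libraries (TruSeq Stranded, NextSeq500) to TAIR10 and kept uniquely aligned reads. The submitters' processing notes name STAR 2.5.2b, SAMtools 1.3.1, featureCounts, R 3.3.2 and DESeq2 1.14.1. The use of strand in counting is not given in the sources used here. They deposited raw counts for 33602 genes and tables of normalized signal (23334 and 23142 genes), in which each count is divided by 1 size factor per library.

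Members and values per library came from the normalized tables. Tests used the raw counts in edgeR 4.0.16 (R 4.3.3, quasi-likelihood, TMM, filterByExpr, all groups of an experiment in the fit), with Benjamini-Hochberg adjustment over all genes and calls at 0.05, two-sided, and were checked on simulated data. Alternatives were DESeq2 1.42.0, other size factors, no filter, other groups in the fit, the replicate number as a block, and leaving out each library. Gene positions, names and sequences came from RefSeq TAIR10.1, which matched all 80 members. Same-numbered replicates deviated together most clearly between genotypes at 4 h of light (correlations of 0.63, 0.41 and 0.19). Between genotypes the correlations were weaker in the dark (0.18, 0.03 and 0.28) and after heat (0.38, 0.07 and 0.20). Between heat and cold in the mutant they were 0.09, 0.11 and 0.18.

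The members, gene lists and tests were chosen with earlier results of these data known. Genes are named as the 12 highest scores, the scores next to the threshold, the 3 largest rises and falls per treatment, members of the lists, neighbouring members or families, and neighbours called in 3 or more conditions. Other genes were named after their values were seen.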

Additional observations from a re-analysis of the deposited data

Results flagged for a closer look

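In 4 members, at 2 h or at 4 h of light, every light library of wild type lay on 1 side of every dark library. Every light library of the mutant at that time lay on the other side of the mutant's dark libraries. *CIPK16* was alone in this at both times. In 1 member the same held for heat and cold. None of these differences was tested. Only members were searched for this pattern, and its share among all ranked genes was not taken. Whether it is more frequent among members is therefore not known, and nothing is read from these counts. *CIPK16* had log2 fold changes of 1.45 (wild type) and -0.84 (mutant) at 2 h of light, and of 1.96 and -0.94 at 4 h. AT3G09405 changed by 0.88 (wild type) and -0.42 (mutant) after 2 h. AT1G29560 changed by 0.57 and -0.26 after 4 h, and its upstream neighbour AT1G29550 by 0.64 and -0.18. *TUA4* changed by 0.29 (wild type) and -0.33 (mutant) after heat.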

How the results depend on the processing

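The counts of members called in the 6 treatment contrasts and of re-chosen genes called in the other experiment stayed within 1.5 times of the values given under all alternatives run. Leaving out 1 library gave 50 to 55 (wild type, 2 h of light), 51 to 60 (wild type, 4 h), 52 to 59 (mutant, 2 h), 58 to 60 (mutant, 4 h), 41 to 46 (wild type, heat) and 44 to 50 (mutant, heat) called members. For the re-chosen genes it gave 25 to 30 higher calls in the cold, 39 to 43 after heat, 34 to 39 in the dark, 39 to 43 after 2 h and 34 to 40 after 4 h of light.

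Membership depended on the rule. Of the 80 genes, 77 stayed with 1 in place of 10 added to the means and 77 with TMM-scaled counts, 53 with a minimum mutant mean of 20, 48 with a minimum of 100, 50 with the mean of the 5 ratios in place of the smallest, and 72 to 79 without 1 library. The share of tested neighbours called in either direction was 25.5%, 27.3%, 29.1%, 17.3% and 20.9% in the 5 conditions. Without 1 library it ran from 20.0% to 28.2%, 18.2% to 29.1%, 17.3% to 30.9%, 11.8% to 21.8% and 13.6% to 23.6%. The low values came without bdr1,2,3 replicate 2 at 2 h, without wild-type replicate 2 or mutant replicates 1 (18.2%) or 3 (19.1%) at 4 h, and without mutant replicates 1 or 3 after heat. With the replicate block in a fit of only the compared groups, an alternative chosen after seeing the data, it was 35.9% after heat. There the same-numbered replicates of both genotypes correlated less (0.38, 0.07 and 0.20). At 4 h of light, where they correlated most, the share was 41.1%, and 29.1% with the block in the fit of all groups. The replicate block changed no other result by more than 1.5 times, with 28 higher calls of re-chosen genes in the cold and 42 after heat. The 36 treatment responses of named genes kept direction and call in all 792 alternative fits. Low counts limit AT3G01345 and the other members with a wild-type mean under 50 in all conditions (11 genes).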

Other observations

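Of the 6 root markers tested in the photomorphogenesis experiment, 3, 3 and 1 were called higher in the mutant in dark, 2 h and 4 h of light, with 0 lower, and of the 8 tested in the heat shock experiment 0 were higher and 0 and 1 lower. *CASP1*, a marker of the root endodermis, was higher by 0.56 in the dark and 0.33 after 2 h. Of the 7 root hair markers, edgeR tested 1 and 4 per experiment and called 0 (at an unadjusted p under 0.05, 2 were lower after heat), and DESeq2 called 1 higher in the dark. Of 10 shoot markers, 2, 1, 1, 2 and 0 were called higher and 1, 5, 2, 0 and 0 lower in the 5 conditions, with *CA1*, a chloroplast carbonic anhydrase gene, lower with a log2 fold change of -1.16 after 2 h of light.

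Of the jasmonate list 2, 3, 3, 0 and 0 were called higher and 1, 0, 0, 3 and 2 lower, with *JAZ10*, a repressor of jasmonate response, higher by 1.22 after 2 h of light and *LOX2*, for an enzyme of jasmonate synthesis, lower with a log2 fold change of -1.46 after heat. Of the 14 genes of abscisic acid and dehydration, 1, 5, 5, 1 and 3 were higher and 2, 1, 1, 0 and 1 lower. The dark starvation list held 1, 2, 0, 1 and 3 higher and 0, 0, 3, 0 and 0 lower, and *ASN1*, for asparagine synthetase, was higher in 4 conditions but lower at 4 h of light (-0.62). Of the epigenetically variable genes 2 were tested, and *ROS1*, a DNA demethylase gene, was called higher in dark and light (0.50, 0.70 and 0.44). DESeq2 called 0, 1 and 0 genes of this list higher in dark, 2 h and 4 h of light.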
